A study of Rattus norvegicus with 18 samples.

Results

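The miR-9 and miR-124 families were examined in small RNA libraries from the gastrocnemius, a hindlimb muscle, of male Brown Norway rats. The members were the entries of the count table named rno-miR-9a, rno-miR-9b or rno-miR-124, with any arm, which gave 6 of 909 entries, all 6 of them among the 763 known miRNAs and none among the 146 predicted candidates. They were rno-miR-9a-5p, rno-miR-9a-3p, rno-miR-9b-5p, rno-miR-9b-3p, rno-miR-124-3p and rno-miR-124-5p. The 18 libraries, each from 1 rat, fell into 3 groups of 6. Young AL rats were 6 months old and fed ad libitum. Old AL rats were 28 months old and fed ad libitum. Old CR rats were 28 months old and had been under caloric restriction from 2 months of age, with 55% of the intake of ad libitum fed rats. Total counts ranged from 34940346 to 83110905 per library. Levels are given as CPM, counts scaled to library size, after TMM scaling, which corrects each library total for a few very abundant entries.

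miRNAs are short RNAs that bind messenger RNAs, mainly through the seed near their 5′ end, and lower the output of those messages. miR-9 and miR-124 are best known from the nervous system, where miR-9 acts in neural progenitors and differentiating neurons and miR-124 is among the most abundant miRNAs of neurons. A whole muscle holds, besides muscle fibres, the axons of motor and sensory nerves, Schwann cells, vessels and other cells. In such bulk tissue, more cells of a type and more RNA per cell cannot be told apart.

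The mature sequences are shown because they decide which of the 6 entries can be read as separate measurements. RefSeq sequences on GRCr8 were found for 4 of the 6 members, and are printed 5′ to 3′ with the seed, bases 2 to 8, in capitals. No sequence is printed for rno-miR-124-3p and rno-miR-124-5p.
rno-miR-9a-5p: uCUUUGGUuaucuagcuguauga
rno-miR-9a-3p: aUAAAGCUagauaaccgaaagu
rno-miR-9b-5p: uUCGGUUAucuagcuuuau
rno-miR-9b-3p: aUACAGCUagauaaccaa
The 4 seeds differed from each other, and 0 of the other mature miRNAs among the 693 names of the RefSeq table had any of them. The 18 bases of rno-miR-9b-3p were the reverse complement of positions 4 to 21 of rno-miR-9a-5p, counted from its 5′ end. The 19 bases of rno-miR-9b-5p were the reverse complement of positions 1 to 19 of rno-miR-9a-3p.

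In GRCr8, rno-miR-9a-5p lies at 3 loci on the plus strand, Mir9-1 at chr2:175974986-175975008, Mir9-2 at chr2:15933307-15933329 and Mir9-3 at chr1:142849415-142849437. Its partner arm rno-miR-9a-3p lies at the same loci, at chr2:175975025-175975046, chr2:15933344-15933365 and chr1:142849454-142849475. On the minus strand of the same hairpins, rno-miR-9b-5p is annotated at Mir3597-1, Mir3597-2 and Mir3597-3, and rno-miR-9b-3p at Mir3597-2 and Mir3597-3. Mir9-1 overlaps the long non-coding RNA gene LOC100911992, Mir9-2 overlaps Mir9-2hg and Mir9-3 overlaps Mir9-3hg. The genes Mir124-1, Mir124-2 and Mir124-3 lie on chromosomes 15, 2 and 3. A count of rno-miR-9a-5p or rno-miR-124-3p can therefore come from any of several loci, which the table does not separate.

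The antisense pairs behaved very differently in the counts. Over the 18 libraries rno-miR-9a-5p had 34561 counts and rno-miR-9b-3p had 33586. In single libraries rno-miR-9b-3p had 95% to 98.2% of the counts of rno-miR-9a-5p, with a median of 97.3%, and rno-miR-9a-5p was higher by 7 to 209 counts in 18 of 18 libraries. The pair was therefore treated as 1 measurement, and rno-miR-9a-5p stands for both below. In the other pair, rno-miR-9a-3p had 3528 counts and rno-miR-9b-5p had 500. Here rno-miR-9b-5p had 5.88% to 13.4% of the counts of rno-miR-9a-3p in young AL libraries, 16.7% to 25.1% in old AL libraries and 8.65% to 18.3% in old CR libraries. The young AL and old AL ranges did not overlap, whereas the old CR range overlapped both. These ranges are a description, since rno-miR-9b-5p was known beforehand from old AL against young AL. It had only 2 to 11 counts per young AL library, and other pairs of entries were not compared in this way. The library kit kept the strand, but how the counting used it is not given in the sources used here, and whether the 9b counts are reads of the opposite strand was not tested.

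**Figure D1:**
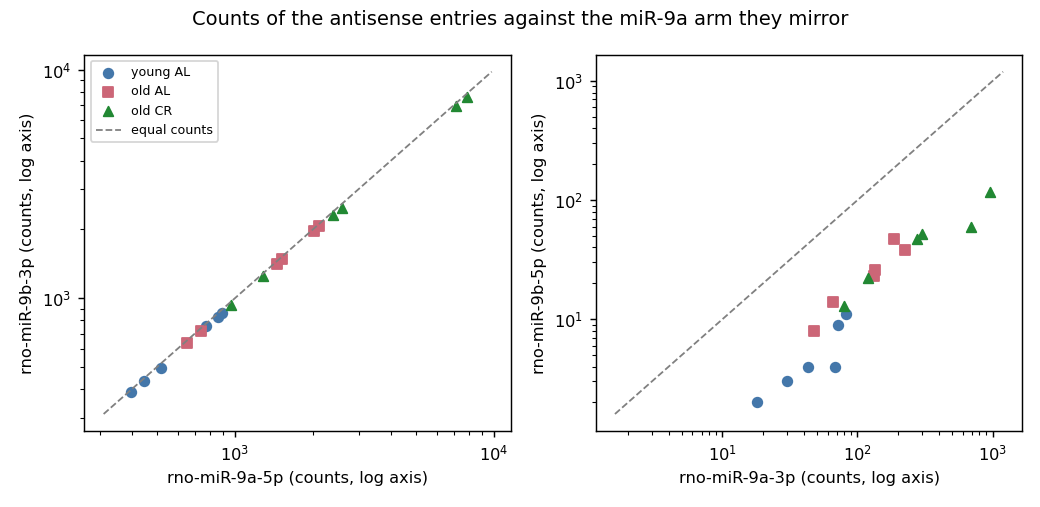
Counts of rno-miR-9b-3p against rno-miR-9a-5p (left) and of rno-miR-9b-5p against rno-miR-9a-3p (right), 1 point per library, both axes logarithmic, with a dashed line where counts are equal. The left pair lies just under the line in 18 of 18 libraries, and the right pair lies well below it, at 5.88% to 25.1% of the partner arm.

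rno-miR-124-3p had 2141 counts. A predicted candidate shared these counts and was counted in 10 libraries, at 93.5% to 97.9% of the counts of rno-miR-124-3p, and had 0 counts in the other 8, so it was not read as a separate measurement. rno-miR-124-5p was at the edge of detection, with 87 counts in all and 0 counts in 4 libraries. All 6 members passed the minimum of 10 counts for testing.

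Each member had its lowest group mean in young AL and its highest in old CR. The members were chosen by their rise in old CR against young AL in earlier work on these libraries, and rno-miR-9b-5p was also known from old AL against young AL. The levels and the fold changes of old CR against young AL are therefore a description with no test.

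rno-miR-9a-5p, the arm usually more abundant than its partner, was the most abundant member. Its young AL levels ran from 6.59 to 19.7 CPM with a median of 11.7, its old AL levels from 10.4 to 32.9 with a median of 21.8, and its old CR levels from 17.7 to 137.4 with a median of 42.4. The means were 12.0 ± 4.37, 20.4 ± 8.88 and 58.0 ± 45.6 CPM (SD, n = 6 each), which placed it 163rd among the 763 known miRNAs in young AL and 103rd in old CR. In old CR the levels were 23.7, 48.1, 17.7, 36.7, 137.4 and 84.7 CPM in replicates 13 to 18, so that replicates 17 and 18 stood above the other 4. All old CR libraries but replicate 15, 5 of 6, exceeded the whole young AL range, and 3 of 6 old AL libraries did.

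rno-miR-9a-3p comes from the other arm of the same hairpin. Its young AL levels ran from 0.266 to 1.55 CPM (median 1.03). Old AL libraries had 0.770 to 3.03 (median 1.96) and old CR libraries 1.44 to 16.8 (median 4.88). Its means were 0.977 ± 0.473, 1.89 ± 0.913 and 6.41 ± 5.64 CPM (SD, n = 6 each). The order of the old CR libraries was the same as for rno-miR-9a-5p, with replicate 17 highest and replicate 15 lowest.

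rno-miR-9b-5p rested on few counts, 2 to 11 per young AL library, 8 to 47 per old AL library and 13 to 117 per old CR library. Its level was 0.0295 to 0.166 CPM in young AL, 0.128 to 0.588 in old AL and 0.237 to 2.05 in old CR, with medians of 0.0906, 0.410 and 0.718. All 6 old CR libraries and 5 of 6 old AL libraries, replicate 9 being the exception, exceeded the young AL range.

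rno-miR-124-3p, the usual mature form of miR-124, had 11 to 50 counts per young AL library, 36 to 198 per old AL library and 50 to 519 per old CR library. Its level was 0.163 to 0.924 CPM in young AL, 0.577 to 2.37 in old AL and 0.912 to 9.11 in old CR, with medians of 0.585, 1.60 and 2.96. The means were 0.530 ± 0.284, 1.43 ± 0.700 and 3.57 ± 3.05 CPM (SD, n = 6 each), which placed it 364th, 284th and 229th among known miRNAs. As for rno-miR-9a-5p, old CR replicate 15 was the only old CR library inside the young AL range. Old AL replicates 9 and 10 were the lowest old AL libraries for all 4 of these members.

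rno-miR-124-5p, the opposite arm, had 0, 2, 0, 2, 0 and 1 counts in young AL replicates 1 to 6 and 10, 10, 0, 3, 1 and 4 in old AL replicates 7 to 12. In old CR replicates 13 to 18 it had 4, 11, 3, 4, 19 and 13 counts. A count of 0 allows up to 3 counts, or 0.0428 to 0.0898 CPM in young AL, a limit that covers only counting error. No young AL library was above that limit, and no fold change is given for this arm.

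**Figure D2:**
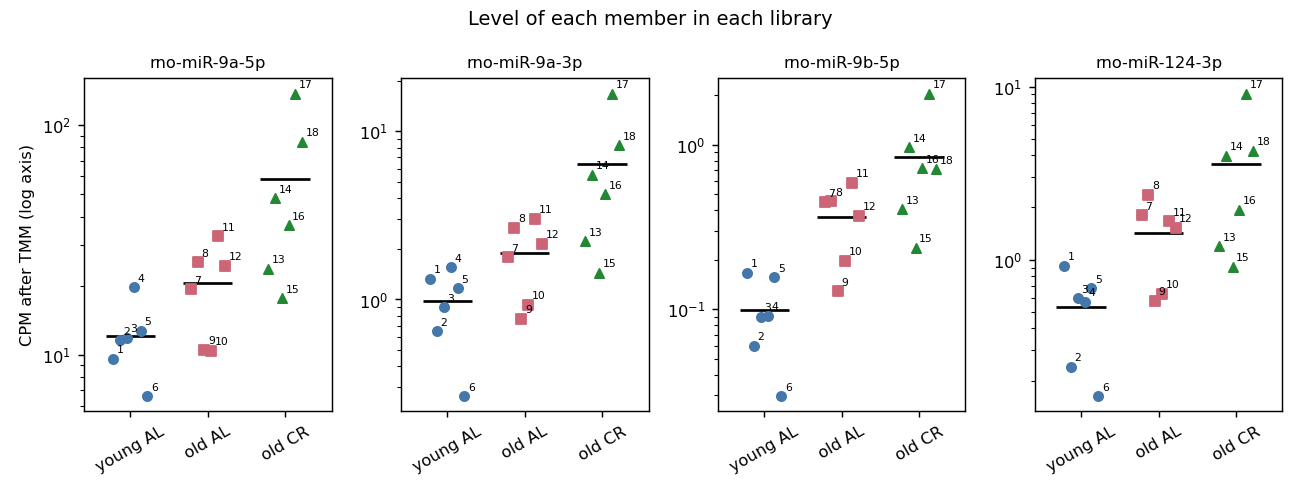
Level of 4 members in each library in CPM after TMM scaling on a logarithmic axis, 1 point per library labelled with its replicate number, with a line at each group mean. Old CR replicate 17 is the highest library in every panel, and young AL replicate 6 is the lowest.

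The spread within old CR was wider than in the other groups. The highest library exceeded the lowest by 2.99 times in young AL, 3.16 times in old AL and 7.79 times in old CR for rno-miR-9a-5p, and by 5.68, 4.10 and 9.99 times for rno-miR-124-3p. On the log2 scale the SD of rno-miR-9a-5p was 0.52, 0.69 and 1.11. The difference in spread was not tested.

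Across age under ad libitum feeding, no member passed edgeR's quasi-likelihood test, for which a call needed an adjusted p not above 0.05 together with a change of 1.5-fold or more. rno-miR-9a-5p was 1.71-fold higher in old AL than in young AL (log2 fold change 0.77 ± 0.32, SE; edgeR adjusted p = 0.174). rno-miR-9a-3p had a log2 fold change of 0.95 ± 0.43 (SE; edgeR adjusted p = 0.213), and rno-miR-124-3p was 2.65-fold higher, at 1.41 ± 0.46 (SE; edgeR adjusted p = 0.108). rno-miR-9b-5p had the largest log2 fold change among these 4, at 1.84 ± 0.48 (SE), and is given without a p because it was known from this comparison. The count of members called was 0 of 6, against 3.28% of the 732 entries tested and 0.956% called as higher. At an unadjusted p under 0.05 there were 5 of 6 members and 171 of 732 entries. DESeq2 called 2 members, rno-miR-124-3p and rno-miR-9b-5p. Both counts include rno-miR-9b-5p, which was known from this comparison. The young AL libraries also entered the choice of members, so the p-values of this comparison are not independent of that choice and are descriptive. None of the 6 members had every old AL library above every young AL library, as 0.82% of entries did.

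For old CR against young AL the log2 fold changes were 2.27 ± 0.48 for rno-miR-9a-5p, 2.70 ± 0.61 for rno-miR-9a-3p, 3.07 ± 0.56 for rno-miR-9b-5p and 2.74 ± 0.61 for rno-miR-124-3p (SE). rno-miR-9a-5p was thus 4.81-fold and rno-miR-124-3p 6.69-fold higher. All 6 members were called by edgeR, where 9.32% of 730 entries were called and 4.11% were called as higher, and nothing is read from this since the contrast chose the members. The old CR levels were all above the young AL levels for rno-miR-9b-5p, as for 2.74% of entries. The listed levels of rno-miR-124-5p did not overlap either, but its old CR replicates 13, 15 and 16, at 0.0738, 0.0547 and 0.0616 CPM, lay within the limit that a count of 0 allows in young AL, so that a separation was not detectable at this depth. Without old CR replicates 17 and 18, chosen after seeing the data, 3 of 6 members were called, and the log2 fold change was 1.40 for rno-miR-9a-5p and 1.93 for rno-miR-124-3p. Without young AL replicates 1 and 2, 2 of 6 were called, rno-miR-9b-5p and rno-miR-124-3p.

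Between the diets at 28 months all 6 members had higher means in old CR, but none was called. rno-miR-9a-5p was 2.85-fold higher in old CR than in old AL (log2 fold change 1.51 ± 0.50, SE), rno-miR-9a-3p had a log2 fold change of 1.77 ± 0.57, rno-miR-9b-5p of 1.23 ± 0.51 and rno-miR-124-3p of 1.32 ± 0.57 (SE). The edgeR adjusted p was 0.392 for each of these 4. edgeR called 0 of 6 members, against 0.272% of the 736 entries tested, all of them higher. At an unadjusted p under 0.05 there were 5 of 6 members and 88 of 736 entries. DESeq2 called 3 members, rno-miR-9a-5p, rno-miR-9a-3p and rno-miR-9b-3p. Both counts include rno-miR-9a-5p and rno-miR-9b-3p, which were treated as the same measurement. The old CR libraries that entered the choice of members are used again here, so the p-values and calls are not independent of that choice. Old CR libraries above every old AL library numbered 4 of 6 for rno-miR-9a-5p and 3 of 6 for rno-miR-124-3p. Complete separation was seen for 0 of 6 members and for 0.408% of entries. Old CR replicates 17 and 18 were the 2 highest old CR libraries for rno-miR-9a-5p and rno-miR-124-3p. Without them, a choice made after seeing the data, the log2 fold change was 0.64 for rno-miR-9a-5p and 0.50 for rno-miR-124-3p. Leaving out the highest libraries of the higher group lowers the difference in any case, so only the values are given.

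The median log2 fold change of the 6 members was 1.18 in old AL against young AL, 2.72 in old CR against young AL and 1.41 in old CR against old AL. Over all entries tested it was 0.06, 0.08 and 0.01. The 3 comparisons share libraries, since each group enters 2 of them, and the members include a pair with nearly the same counts.

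**Figure D3:**
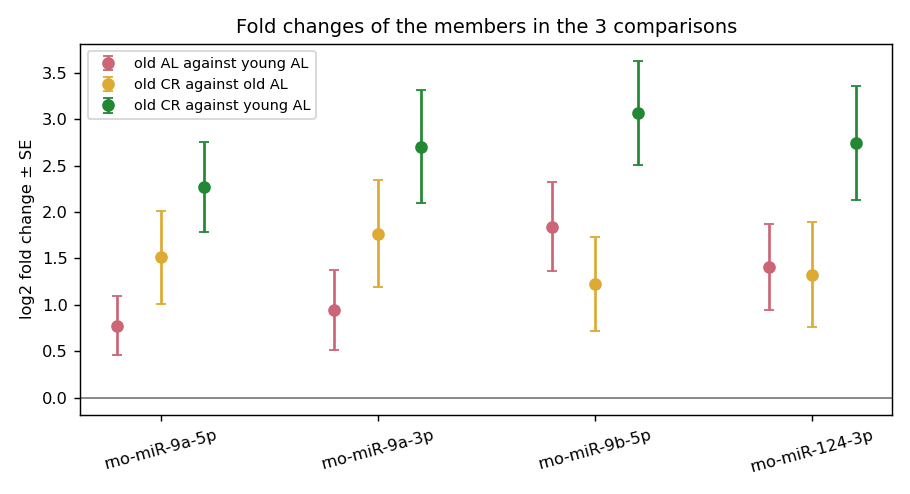
log2 fold change of 4 members with its SE in each of the 3 comparisons, 6 libraries per group, from edgeR. All 12 values are above 0, and the values of old CR against young AL, between 2.27 and 3.07, come from the contrast that chose the members.

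The levels of the members also varied together from library to library. Across the 18 libraries Pearson's r between the log2 levels of rno-miR-9a-5p and rno-miR-124-3p was 0.914 and Spearman's rho 0.851, which is a description, since the choice of members sets part of it through the group means. Leaving out the 2 libraries farthest from the median of rno-miR-9a-5p, old CR replicates 17 and 18, gave r = 0.862 over 16 libraries. Within old CR r was 0.976 and rho 1 (n = 6, two-sided exact permutation p = 0.00139 and 0.00278, adjusted over 24 correlations 0.00333 and 0.00667). Within old AL r was 0.896 and rho 0.657 (n = 6, exact permutation p = 0.0361 and 0.175, adjusted 0.0413 and 0.191). On library totals alone rho was 0.943 (exact permutation, adjusted p = 0.0211). After RLE scaling it was 0.714 and with a prior count of 1 it was 0.657 (exact permutation, adjusted p = 0.163 and 0.191), neither of which passed. Within young AL r was 0.507 and rho 0.257 (n = 6, exact permutation p = 0.332 and 0.658), which does not pass the threshold. As deviations from the group means over the 18 libraries, a test added after seeing the data, r was 0.848 and rho 0.748 (permutation within groups, p = 0.00018 and 0.00241, adjusted over 6 pairs 0.00018 and 0.00289). The old CR and young AL libraries entered the choice of members. Correlation p-values that use them, here and for the pairs below, are therefore not independent of that choice and are descriptive. The same holds within old AL for pairs with rno-miR-9b-5p.

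The 2 arms of the miR-9a hairpin correlated past the threshold within both old groups. For rno-miR-9a-5p and rno-miR-9a-3p r was 0.987 and rho 0.943 within old AL (n = 6, exact permutation p = 0.00278 and 0.0167, adjusted 0.00606 and 0.0333). Within old CR they were 0.992 and 1 (n = 6, exact permutation p = 0.00139 and 0.00278, adjusted 0.00333 and 0.00667). Within young AL they were 0.796 and 0.657 (n = 6, exact permutation p = 0.0778 and 0.175, adjusted 0.0848 and 0.191). Differences between groups in these correlations were not tested.

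rno-miR-9b-5p correlated with rno-miR-124-3p, which comes from other hairpins. Within young AL r was 0.964 and rho 1 (n = 6, exact permutation p = 0.00139 and 0.00278, adjusted 0.00333 and 0.00667), on 2 to 11 counts of rno-miR-9b-5p. Within old AL r was 0.927 and rho 0.829 (n = 6, exact permutation p = 0.0222 and 0.0583, adjusted 0.0281 and 0.0824). Within old CR r was 0.948 and rho 0.829 (n = 6, exact permutation p = 0.00556 and 0.0583, adjusted 0.0103 and 0.0824). On library totals alone the adjusted p of rho was 0.0211 in old AL and 0.00444 in old CR (exact permutation), so that for these groups the side of the threshold on which rho fell depended on the scaling. rno-miR-9a-3p passed by r with rno-miR-9b-5p and with rno-miR-124-3p in every group (r from 0.897 to 0.984), whereas rho did not pass in every group. With rno-miR-9b-5p its rho within young AL, old AL and old CR was 0.657, 0.943 and 0.829 (n = 6 each, exact permutation, adjusted p = 0.191, 0.0333 and 0.0824). With rno-miR-124-3p it was 0.657, 0.714 and 1 (n = 6 each, exact permutation, adjusted p = 0.191, 0.181 and 0.00667). rno-miR-9a-5p with rno-miR-9b-5p had r of 0.492 in young AL (n = 6, exact permutation p = 0.285, adjusted 0.297), 0.937 in old AL (exact permutation p = 0.00833, adjusted 0.0133) and 0.909 in old CR (exact permutation p = 0.0139, adjusted 0.0208). The rho of this pair was 0.257, 0.886 and 0.829 and passed in none of the 3 groups (n = 6 each, exact permutation, adjusted p = 0.658, 0.0615 and 0.0824). Over the 6 pairs the deviations from the group means gave r from 0.814 to 0.951. The levels of 2 members in a library share its scaling, and the depth values beside them were as follows. Across the 18 libraries rho of rno-miR-9a-5p was 0.27 with total counts and -0.14 with the TMM factor, and rho of rno-miR-124-3p was 0.21 and 0.02, as descriptions.

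**Figure D4:**
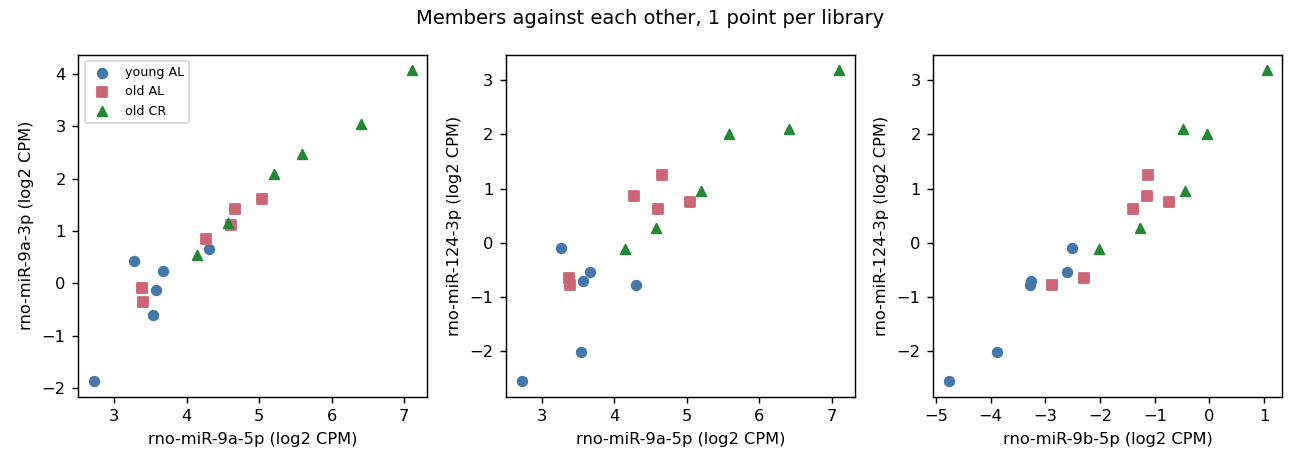
log2 CPM of pairs of members, 1 point per library, coloured by group. The points of the 3 groups lie along a shared line, with old CR reaching farthest to the upper right, and among the 3 pairs drawn r within young AL is lowest for rno-miR-9a-5p against rno-miR-124-3p (0.507).

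A ratio of 2 members within a library does not depend on the scaling. rno-miR-9a-5p had 7.22 to 24.8 times the counts of rno-miR-9a-3p in young AL, 9.43 to 13.6 times in old AL and 8.18 to 12.3 times in old CR, with medians of 12.9, 11.0 and 9.48. The mean log2 ratio was 3.73 ± 0.60, 3.47 ± 0.17 and 3.27 ± 0.22 (SD, n = 6 each). It differed by -0.26 between old AL and young AL (two-sided exact permutation p = 0.342, adjusted over 9 ratio tests 0.381) and by -0.20 between old CR and old AL (exact permutation p = 0.108, adjusted 0.195). The range was wider in young AL, whose counts were lower, than in either old group.

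rno-miR-9a-5p had 10.4 to 48.2 times the counts of rno-miR-124-3p in young AL, 10.7 to 19.6 times in old AL and 12.1 to 19.9 times in old CR, with medians of 27.2, 16.2 and 19.1. The mean log2 ratio differed by -0.74 between old AL and young AL (exact permutation p = 0.0736, adjusted 0.195) and by 0.22 between old CR and old AL (exact permutation p = 0.264, adjusted 0.340). The first of these passed the threshold without young AL replicate 1, the young library with the lowest ratio, at -0.996 (exact permutation, adjusted p = 0.0260).

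rno-miR-9a-5p had a median of 162 times the counts of rno-miR-9b-5p in young AL, 55.8 times in old AL and 62.7 times in old CR. The log2 ratio ran from 5.78 to 7.58, from 5.41 to 6.27 and from 5.63 to 6.88. The mean log2 ratios were 6.89 ± 0.74, 5.82 ± 0.29 and 6.04 ± 0.47 (SD, n = 6 each). The old AL ratio was lower than the young AL ratio by 1.08 on the log2 scale, which is given with no p because rno-miR-9b-5p was known from that comparison. Between old CR and old AL it differed by 0.22 (exact permutation p = 0.381, adjusted 0.381).

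**Figure D5:**
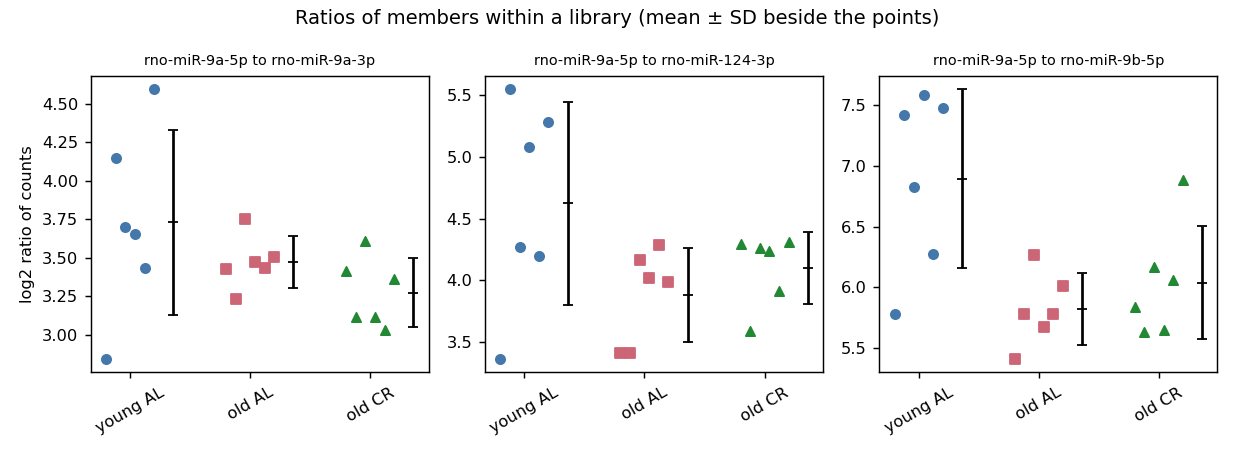
log2 ratio of the counts of 2 members in each library, with the mean and SD of each group (n = 6) beside the points. Young AL has the widest spread in all 3 panels, with replicate 1 the lowest young library in each.

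Among the 478 known entries of at least 0.1 CPM on average that were no member and shared no counts with one, those most like rno-miR-9a-5p by Spearman's rho over 18 libraries were rno-miR-135a-5p (0.843), rno-miR-7b (0.833), rno-miR-129-5p (0.822), rno-miR-218b (0.822) and rno-miR-218a-5p (0.798). The entries most like rno-miR-124-3p were rno-miR-219b (0.926), rno-miR-219a-2-3p (0.920), rno-miR-129-5p (0.862), rno-miR-129-1-3p (0.806) and rno-miR-129-2-3p (0.806). rno-miR-129-5p was in both sets, with means of 0.608 ± 0.199, 1.08 ± 0.534 and 3.74 ± 2.82 CPM in young AL, old AL and old CR (SD, n = 6 each). miR-219 is known from oligodendrocytes and miR-218 from motor neurons. rno-miR-219b averaged 0.489 ± 0.237, 0.918 ± 0.318 and 2.90 ± 3.68 CPM, and rno-miR-218a-5p 26.9 ± 12.9, 29.9 ± 8.55 and 59.4 ± 35.8 CPM (SD, n = 6 each). rno-miR-218b averaged 21.5, 23.7 and 48.1 CPM in the same order, close to rno-miR-218a-5p. Entries of the same miRNA number may be partly the same reads, so the 5 places of each set are not all separate measurements. These are descriptions over libraries of 3 groups and carry no test.

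Other neural miRNAs formed a list of 38 entries, of which 31, 30 and 31 were tested in old AL against young AL, old CR against young AL and old CR against old AL. edgeR called 3, 7 and 0 of them as higher and 0 as lower in each comparison. At an unadjusted p under 0.05 there were 12, 14 and 12, and DESeq2 called 5, 10 and 1. Over all entries edgeR called 0.956%, 4.11% and 0.272% as higher. An unadjusted p under 0.05 was found for 171 of 732, 186 of 730 and 88 of 736 entries. The list's median log2 fold change was 0.37, 1.06 and 0.74, with 21, 25 and 25 entries above 0. Those that rose in old AL were rno-miR-129-1-3p, rno-miR-212-3p and rno-miR-598-3p. Those that rose in old CR against young AL were rno-miR-129-1-3p, rno-miR-129-2-3p, rno-miR-129-5p, rno-miR-219a-2-3p, rno-miR-219b, rno-miR-346 and rno-miR-598-3p. Some of these entries may be the same reads, since rno-miR-129-1-3p and rno-miR-129-2-3p had equal counts in 16 of 18 libraries and rno-miR-219b had 86.2% to 114% of the counts of rno-miR-219a-2-3p, with a median of 98.4%. The list itself was written with earlier results of these data known, so its calls are a description. In addition, rno-miR-212-3p and rno-miR-346 are named after their values were seen. The most abundant entry, rno-miR-128-3p, also present in muscle, averaged 711 ± 167, 484 ± 134 and 518 ± 152.7 CPM (SD, n = 6 each) and was not called. It set the summed level of the list, 585 to 1058 CPM in young AL, 460 to 787 in old AL and 538 to 775 in old CR. Without it, a choice made after seeing the values, the sum was 33.4 to 107, 52.3 to 90.0 and 71.2 to 249 CPM.

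Markers of other cells were set beside the members in the order old AL against young AL, old CR against young AL and old CR against old AL. The shares over all entries given above for the neural list apply to these lists too. Of 6 neuroendocrine entries (miR-7, miR-375), 4, 4 and 5 were tested. edgeR called 1, 2 and 0 as higher (unadjusted p under 0.05 for 2, 2 and 0, DESeq2 1, 2 and 0). The sum of the 6 was 193 to 324 CPM in young AL, 134 to 350 in old AL and 191 to 367 in old CR. Of 16 striated muscle entries (miR-1, miR-133, miR-206, miR-208, miR-499), 13 were tested in each comparison. edgeR called none of them, with an unadjusted p under 0.05 for 0 and 0 calls by DESeq2. The sum of the 16 was 159773 to 549390 CPM over all libraries, so that the labelled tissue carried its defining markers. rno-miR-133a-3p (18756036 counts) and rno-miR-133c (18540925 counts) shared counts, and both entered this sum. No entry was called by edgeR in any comparison among 4 erythroid (miR-144, miR-451; unadjusted p under 0.05 for 1, 0 and 1, DESeq2 1, 0 and 0), 8 leukocyte (miR-142, miR-150, miR-155, miR-223; 2, 0 and 0, DESeq2 0) and 3 endothelial entries (miR-126; 0 throughout, DESeq2 0). Of the erythroid entries 4, 3 and 4 were tested, and of the leukocyte and endothelial entries all. Summed levels in young AL, old AL and old CR were 3.31 to 10.1, 6.53 to 11.7 and 3.48 to 9.53 CPM for the erythroid list and 125 to 172, 111 to 609 and 109 to 241 CPM for the leukocyte list. They were 4549 to 8099, 3832 to 7249 and 3981 to 6835 CPM for the endothelial list. The median log2 fold change was 0.38, 0.82 and 0.39 for the neuroendocrine list and 0.12, 0.13 and -0.13 for the striated muscle list. For the erythroid list it was 0.55, -0.27 and -0.59. For the leukocyte list it was 0.78, 0.48 and -0.27, and for the endothelial list -0.16, -0.19 and -0.01.

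Liver and epithelial markers were examined in the same way. Of 3 liver entries (miR-122), edgeR called 0, 3 and 0 as higher (unadjusted p under 0.05 for 3, 3 and 0, DESeq2 3, 3 and 0), and their sum was 0.840 to 54.5 CPM in young AL, 69.9 to 1128 in old AL and 147 to 272 in old CR. Of 14 epithelial entries (miR-141, miR-200, miR-203, miR-205, miR-429), edgeR called 0 in each comparison, with 4, 10 and 3 at an unadjusted p under 0.05 and 0, 4 and 0 called by DESeq2. Their sum was 30.3 to 95.6, 64.1 to 386 and 48.8 to 1962 CPM. The median log2 fold change of the epithelial list was 1.33, 2.87 and 1.85. Of its 13 tested entries, 13, 13 and 12 were above 0. For the liver list the median was 4.36, 3.53 and -0.81. In old CR replicates 13 to 18 the epithelial sum was 48.8, 1962, 78.5, 156, 80.8 and 192 CPM. Replicates 17 and 18 were the highest for rno-miR-9a-5p, and the epithelial sum of replicate 18 was above every young AL library. Across the 18 libraries the rho of rno-miR-9a-5p with the summed list was 0.85 for the neural list without rno-miR-128-3p and -0.31 with it, 0.66 for neuroendocrine, 0.46 for epithelial, 0.25 for liver, 0.24 for endothelial, 0.14 for striated muscle, 0.01 for erythroid and -0.25 for leukocyte entries, as a description. For rno-miR-124-3p the rho was 0.59 for the neural list without rno-miR-128-3p and -0.44 with it, also as a description. Over the other lists it ran from -0.11 (erythroid) to 0.46 (neuroendocrine). The neural list holds rno-miR-218a-5p and rno-miR-218b, which were among the entries most like rno-miR-9a-5p. They averaged 26.9 and 21.5 CPM in young AL, where the sum without rno-miR-128-3p averaged 68.5 CPM. These entries may be partly the same reads, and both enter the sum. The part of any of these cells in the levels of miR-9 and miR-124 was not tested.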

How the data were processed

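Small RNA libraries were made from the gastrocnemius of 18 male rats, 6 per group. The authors trimmed reads with Cutadapt 1.2.1 and Sickle, identified miRNAs with miRDeep2 and deposited raw counts for each miRNA and library, without normalization. The submitters' processing notes also name Rnor_6.0 and Bowtie2 2.4.0. Not given in the sources used here are the miRBase release, the strand setting of the counting and how a read matching several miRNAs was assigned. Counts of near-identical or antisense entries are therefore uncertain. In every library the total counts were above the mapped reads that the paper's supplement lists under the same sample number. If these numbers match, some reads were counted in several entries, and total counts are not numbers of reads. Loci and sequences are from RefSeq GRCr8, another build, and no coordinates were converted. Of the columns, 0 were left unused.

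Counts were compared with edgeR 4.0.16 in R 4.3.3 (TMM, robust quasi-likelihood test, two-sided) fitting the 12 libraries of each comparison on their own, for entries with at least 10 counts, with Benjamini-Hochberg adjustment over all of them. A call needed an adjusted p not above 0.05 and a change of 1.5-fold or more. SEs were obtained as the absolute log2 fold change over the square root of F. DESeq2 1.42.0, the tool of the study, was an alternative. A prior count of 0.5 was added on the log2 scale. Ratios and correlations within groups were tested by exact permutation in scipy 1.17.1, those over 18 libraries with 100000 resamples. The scripts were tested on simulated data.

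The members and marker lists were chosen with earlier results of these data known. Named were the members, entries sharing their counts within 10% or 2 counts, the 5 known entries most like rno-miR-9a-5p and the 5 most like rno-miR-124-3p, and up to 6 entries of a marker list by mean level. Replicates are separate rats, and p-values measure the spread between them.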

Additional observations from a re-analysis of the deposited data

How the results depend on the processing

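Of the 363 alternative values of a member's log2 fold change, 363 kept their direction, 16 fell below the threshold and 9 rose past it. All 90 alternative values of Pearson's r kept direction and side. Spearman's rho kept its direction in 90 of 90, but 11 values within the old groups passed the threshold where the main value did not, 7 of them on library totals alone and 4 after RLE scaling. In old AL against young AL, where 24 entries and 0 members were called, library totals alone gave 0 and DESeq2 87, a stricter filter (filterByExpr) 37, a single fit over the 3 groups 38 and known miRNAs only 53 entries, and leaving out 1 library gave 9 to 20. Members called were 2 with DESeq2, 1 of 5 tested with filterByExpr, 1 in the single fit, 2 with known miRNAs only, and 0 with any 1 library left out. In old CR against young AL, with 68 entries and 6 members, DESeq2 called 110, leaving out 1 library gave 45 to 67, and leaving out old CR replicates 17 and 18, added after seeing the data, gave 39. Members called were 5 to 6 without 1 library, 2 without young AL replicates 1 and 2, and 3 without old CR replicates 17 and 18. In old CR against old AL, with 2 entries and 0 members, library totals alone, known miRNAs only and leaving out old CR replicates 17 and 18 gave 0, DESeq2 19 entries and 3 members, and leaving out 1 library 0 to 3 entries. Of the alternative ratio values, 5 passed the threshold where the main value did not. Leaving out 1 library, the log2 difference ran from -0.63 to -0.28 for rno-miR-9a-5p to rno-miR-9a-3p in old CR against young AL, from -0.996 to -0.56 for rno-miR-9a-5p to rno-miR-124-3p in old AL against young AL, and for rno-miR-9a-5p to rno-miR-9b-5p from -1.30 to -0.94 in old AL and from -1.08 to -0.72 in old CR against young AL. The value farthest from 0 was in each case that without young AL replicate 1. Without young AL replicates 1 and 2, the ratio of rno-miR-9a-5p to rno-miR-9b-5p differed by -1.22 in old AL against young AL. The cause of these changes was not tested. No paired analysis was made, because the groups consist of separate rats and no pairing between groups is given. rno-miR-9b-5p and rno-miR-124-5p in young AL rest on a few counts per library, which limits their precision.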
